A study of Mus musculus with 8 samples.

Results

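The genes described here encode the lysosome of splenic myeloid cells, namely its soluble hydrolases with their activators, its membrane proteins, its proton pump and *Tfeb*, a transcription factor of lysosomal genes. Of 42 genes listed, 38 were represented among 12393 genes on the array, each by the probe set with the highest mean among those annotated with that symbol alone. *Cd63*, *Arsb*, *Atp6v0c* and *Atp6v0d2* had no such probe set and are named only. The cells were CD11b+Gr-1+ immature myeloid cells (IMCs), sorted from the spleens of 4 male *Tff2*-/- mice aged 16 weeks on a C57BL/6 background. All mice had drunk 3% DSS, which injures the colon, for 5 days and then plain water, and were sacrificed 14 days later. The IMCs of each mouse were divided between a culture with GM-CSF (Csf2), a myeloid growth factor, plus 3 µM mouse rTFF2, a secreted trefoil peptide, and a culture with GM-CSF alone. Cultures lasted 7 days and gave 4 arrays in each group. Both groups therefore lacked endogenous TFF2 and came from DSS-treated animals, and neither an untreated nor a wild-type culture was compared. The labels give GM-CSF at 5 nM, which differs from the dose in the study's methods.

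Lysosomes are acidic organelles in which macromolecules taken up from outside the cell or delivered by autophagy are broken down. Their hydrolases are tagged with mannose 6-phosphate in the Golgi and work at the low pH that the vacuolar ATPase (V-ATPase) maintains by pumping protons across the lysosomal membrane. Many of these genes carry an E-box of the CLEAR type near their start, an element to which TFEB and its relatives bind, and phagocytes such as macrophages are rich in lysosomes.

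Many lysosomal genes were higher in the cultures with rTFF2, by amounts that were mostly small. The signal of 19 of 38 measured genes rose and that of 0 fell (limma with the mouse as a block, adjusted p under 0.05), while 14.5% of all 12393 genes rose and 13.3% fell. The array signal of all 38 genes exceeded the background level of 3.50 on the log2 scale in at least one group, and among the 7381 genes of which the same was true 23.0% rose. The median difference of the 38 genes (rTFF2 minus control, that is GM-CSF alone) was 0.29 on the log2 scale (range -0.19 to 1.52), against -0.03 for all genes. The difference was positive on average for 37 genes and positive in 4 of 4 mice for 28. The latter pattern was found for 21.9% of all genes and for 2387 of the 7381 above background. For 20 genes every culture with rTFF2 exceeded every culture with GM-CSF alone. That held for 13.6% of all genes and for 1561 of the 7381 above background. In bulk RNA, more cells of a type and more RNA per cell cannot be told apart.

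The rise was seen in each animal, and its size varied with the class of protein. The median difference of the 38 genes was 0.34, 0.35, 0.28 and 0.24 in mice 1 to 4. Mouse 4 had the smallest difference of the 4 animals for 16 genes, and mouse 1 the largest for 17. By class, 6 of 8 membrane proteins rose (75.0%, median 0.51) and 11 of 20 soluble proteins (55.0%, median 0.34). The hydrolases alone, without activators and progranulin, had 11 of 17 genes higher (64.7%). Of 9 proteins of the proton pump 2 rose (22.2%, median 0.20). Among all genes 14.5% rose and among genes above background 23.0%, so the share of the proton pump was near the latter. The differences between the classes were not tested.

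**Figure D1:**
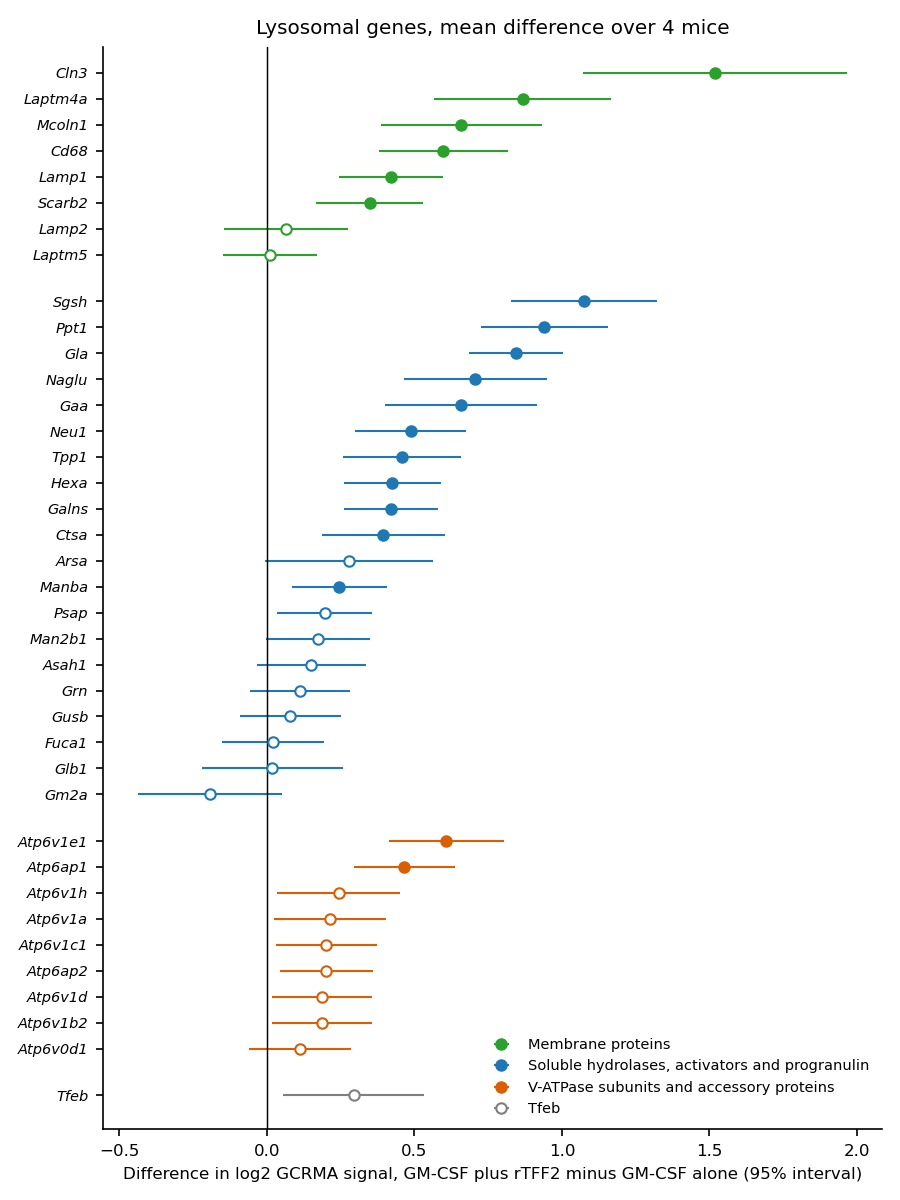
Difference in log2 GCRMA signal between GM-CSF plus rTFF2 and GM-CSF alone for the 38 measured genes, with points at the mean over 4 mice and lines for the 95% interval from the block fit. Filled points passed the adjusted threshold. Membrane proteins and hydrolases reach 1.52 and 1.07, whereas most proton pump genes lie between 0.11 and 0.24.

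Other features of the cultures moved with rTFF2. Neutrophil genes were higher (14 of 15), with a summed linear signal of 101486 to 119018 in cultures with rTFF2 and 44354 to 86933 with GM-CSF alone, among them *Mpo* and *Elane*, enzymes of neutrophil granules. Basophil and mast cell genes were higher (7 of 11, with a summed signal of 4265 to 7834 with rTFF2 and 212 to 517 with GM-CSF alone), and the mast cell proteases *Mcpt4*, *Cma1*, *Tpsb2* and *Tpsab1* were at background in both groups. For 6 eosinophil genes, 3 rose and 1 fell, with sums of 4414 to 10884 with rTFF2 and 810 to 3293 with GM-CSF alone. Dendritic cell genes were lower (11 of 13, with sums of 8365 to 12733 with rTFF2 and 33165 to 43414 with GM-CSF alone). Among those 11, *Cd209a* was at background on all arrays. Of 15 macrophage genes, 6 rose and 3 fell, the sums being 22546 to 27589 with rTFF2 and 16557 to 23156 with GM-CSF alone, and the defining *Adgre1* and *Csf1r* were expressed in both groups and did not pass the test. Their part in the lysosomal result was not tested.

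Markers of lymphocytes, red cells, platelets and stroma gave fewer calls. Of 12 T and NK cell genes 1 rose and 1 fell, and the one that fell, *Cd8a*, was at background on all arrays. The *Cd3* genes were at background on average in both groups. The sums were 1109 to 1356 with rTFF2 and 1141 to 1306 with GM-CSF alone, and came mostly from *Il7r* (mean log2 signal 9.91 and 10.01). Of 8 B cell genes 1 rose (66 to 72 with rTFF2 and 54 to 61 with GM-CSF alone). Of 10 stromal and endothelial genes 1 rose and 2 fell (53 to 70 with rTFF2 and 52 to 58 with GM-CSF alone). The 2 that fell, *Col1a1* and *Cdh5*, were at background on all arrays. Of 8 erythroid and platelet genes, *Pf4* and *Itga2b* rose, with sums of 9999 to 10733 with rTFF2 and 1937 to 4526 with GM-CSF alone, while *Hba-a1* was at background.

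A sign of RNA quality also differed. The 3′ minus 5′ difference of the *Actb* control probe sets was 0.70 ± 0.05 with rTFF2 and 0.53 ± 0.09 with GM-CSF alone (SD, n = 4 each), with no overlap between the groups. For *Gapdh* it was 0.26 ± 0.04 with rTFF2 and 0.22 ± 0.07 with GM-CSF alone. With the *Actb* difference as a covariate beside the mouse, a fit chosen after seeing the data, 3 of the 38 lysosomal genes rose (*Cln3*, *Gla* and *Tfeb*), against 4.22% of all genes. The 17 other calls were lost in that fit, which holds a covariate that moves with the groups.

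The sequence before the start of these genes was read for the palindrome CACGTG, the core of the CLEAR element, because it is the element through which TFEB and its relatives are known to act. Of the 42 genes 36 were found in a RefSeq table of windows from 250 bases before to 50 bases after the annotated start (GRCm38.p6), and 12 of the 36 (33.3%) held the motif, against 8.09% of the 27025 genes in the table. Counted by window, it was in 12 of 43 windows of these genes (27.9%) and in 7.15% of 32851 windows. The longer form TCACGTG, or CACGTGA on the other strand, which contains the first motif, was found in the same number of windows, 12 of 43, against 3.77% of all windows, and the 8-base palindrome TCACGTGA in 6 (14.0%) against 0.974%. The stretches around the motif are given for the genes whose every copy lay wholly before the start, first those that rose and then the 3 that did not pass. CACGTG is in capitals, the strand is that of the gene, and position -1 is the base before the annotated start.
Cln3 (chr7:126583332-126583405, minus strand, positions -169 to -96): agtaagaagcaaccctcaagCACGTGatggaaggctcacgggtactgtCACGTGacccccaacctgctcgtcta
Gla (chrX:134601174-134601252, minus strand, positions -247 to -169): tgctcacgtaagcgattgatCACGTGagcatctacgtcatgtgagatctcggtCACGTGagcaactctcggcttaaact
Lamp1 (chr8:13159080-13159160, plus strand, positions -81 to -1): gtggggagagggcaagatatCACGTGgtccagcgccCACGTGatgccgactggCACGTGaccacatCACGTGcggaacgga
Mcoln1 (chr8:3500428-3500499, plus strand, positions -91 to -20): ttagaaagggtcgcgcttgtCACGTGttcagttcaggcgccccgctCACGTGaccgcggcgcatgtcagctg
Sgsh (chr11:119355514-119355559, minus strand, positions -49 to -4): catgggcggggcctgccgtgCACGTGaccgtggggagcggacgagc
Naglu (chr11:101070001-101070046, plus strand, positions -93 to -48): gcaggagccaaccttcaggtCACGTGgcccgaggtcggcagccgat
Gaa (chr11:119267803-119267848, plus strand, positions -160 to -115): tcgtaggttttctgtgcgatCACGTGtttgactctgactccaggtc
Arsa (chr15:89477425-89477460, minus strand, positions -36 to -1): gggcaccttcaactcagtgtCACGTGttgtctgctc
Glb1 (chr9:114401010-114401055, plus strand, positions -68 to -23): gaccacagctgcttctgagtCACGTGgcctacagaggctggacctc
Atp6v1a (chr16:44139365-44139410, minus strand, positions -151 to -106): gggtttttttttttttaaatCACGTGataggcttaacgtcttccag
A match is a description of the sequence and does not show binding. The motif shares use no array values, and lysosomal genes were already known to carry this element. *Lamp1* held 4 copies and *Cln3*, *Mcoln1*, *Gla* and *Ctsa* held 2 copies each. Of the copies in *Ctsa*, one began at position -12 and the other at position 6 after the start, and the copy of *Atp6v0d1* began at -3 and spanned the start.

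Genes with and without the motif both rose. Of the 12 with CACGTG 8 rose (median 0.54), of 21 without it 10 rose (median 0.25), and 1 rose of the 5 measured genes that the table lacks. Among all measured genes in the table, 205 of 1069 with the motif (19.2%) and 1257 of 8818 without it (14.3%) rose. The motif was thus present both in *Cln3*, with the largest difference, and in *Glb1*, whose difference was 0.02. The difference between genes with and without the motif was not tested.

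**Figure D2:**
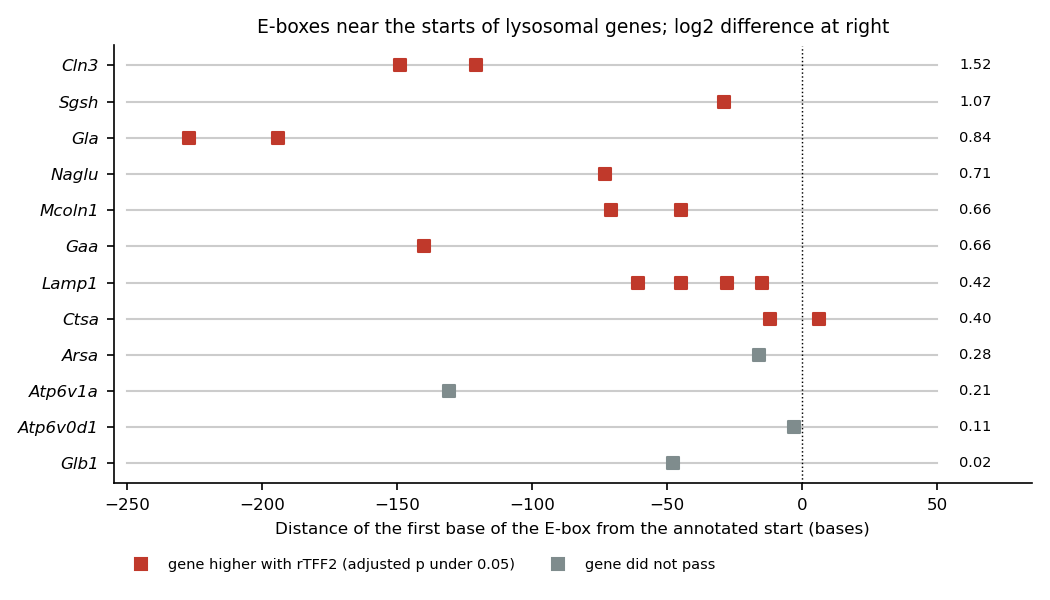
Position of each CACGTG relative to the annotated start (bases, dotted line at the start) in the windows of the 12 genes, ordered by their log2 difference between GM-CSF plus rTFF2 and GM-CSF alone, printed at right. Red squares mark the 8 genes that rose, at the top of the order, and grey squares the 4 that did not pass.

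The lysosomal membrane proteins had the largest median difference of the classes, and the largest difference among all 38 genes was that of *Cln3*, which encodes a membrane protein whose loss causes a childhood neurodegenerative storage disease. With rTFF2 the log2 signals of *Cln3* were 7.36, 7.00, 7.12 and 7.10 in mice 1 to 4, and with GM-CSF alone they were 5.25, 6.17, 5.38 and 5.71. No culture with GM-CSF alone reached the lowest culture with rTFF2. This gave a difference of 1.52 ± 0.19 (SE, n = 4 mice) with a limma adjusted p of 0.0018. The cultures with rTFF2 gave *Laptm4a* signals of 10.87, 10.90, 11.00 and 10.87 on the log2 scale in mice 1 to 4, and those with GM-CSF alone gave 10.04, 9.56, 10.25 and 10.32. *Laptm4a* encodes a small transmembrane protein of endosomes and lysosomes, and its control cultures, with that of mouse 2 lowest, spread more widely than those with rTFF2 without overlapping them. The log2 difference came to 0.87 ± 0.13 (SE, limma adjusted p = 0.0033, n = 4 mice).

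In mice 1 to 4, *Cd68* reached 12.51, 12.27, 12.18 and 12.30 (log2 signal) with rTFF2 and 11.68, 11.55, 11.75 and 11.88 with GM-CSF alone. *Cd68* encodes a heavily glycosylated lysosomal protein used as a macrophage marker, and its groups did not overlap. On average the difference was 0.60 ± 0.09 (SE, limma adjusted p = 0.0042, n = 4 mice). For *Mcoln1* the 4 mice gave log2 signals of 7.81, 7.68, 7.69 and 7.57 with rTFF2 and 6.70, 7.20, 7.18 and 7.02 with GM-CSF alone. The groups were again separate for *Mcoln1*, the lysosomal calcium channel TRPML1, with mouse 1 giving both the highest culture with rTFF2 and the lowest with GM-CSF alone. The mean difference was 0.66 ± 0.12 (SE, n = 4 mice), with a limma adjusted p of 0.0067. The other probe set of *Mcoln1* differed by 0.41 and did not pass (adjusted p = 0.0694).

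*Lamp1* had log2 signals of 12.64, 12.66, 12.57 and 12.47 with rTFF2 in mice 1 to 4, against 12.12, 12.16, 12.19 and 12.20 with GM-CSF alone. *Lamp1*, one of the most abundant glycoproteins of the lysosomal membrane, had separate groups and a narrow spread in the control cultures. This gave a difference of 0.42 ± 0.07 (SE, n = 4 mice) with a limma adjusted p of 0.007. With rTFF2 the log2 signals of *Scarb2* were 10.51, 10.81, 10.56 and 10.43 in mice 1 to 4, and with GM-CSF alone they were 10.19, 10.27, 10.28 and 10.18. *Scarb2* encodes LIMP-2, which carries glucocerebrosidase to the lysosome, and the groups did not overlap although mouse 2 stood highest with rTFF2. The log2 difference came to 0.35 ± 0.08 (SE, limma adjusted p = 0.016, n = 4 mice). Without mouse 1 its adjusted p was 0.0560.

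The 2 other membrane proteins did not pass. *Lamp2*, which takes part in chaperone-mediated autophagy, averaged 12.57 ± 0.12 with rTFF2 and 12.50 ± 0.11 with GM-CSF alone (SD, n = 4 each). Its difference was 0.07 (95% interval -0.15 to 0.28), and 1 of its 3 other probe sets rose, by 0.26 (adjusted p = 0.029). For *Laptm5*, a lysosomal protein of blood cells, the difference was 0.01 (-0.15 to 0.17) on mean signals of 13.62 ± 0.09 with rTFF2 and 13.61 ± 0.04 with GM-CSF alone (SD, n = 4 each).

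**Figure D3:**
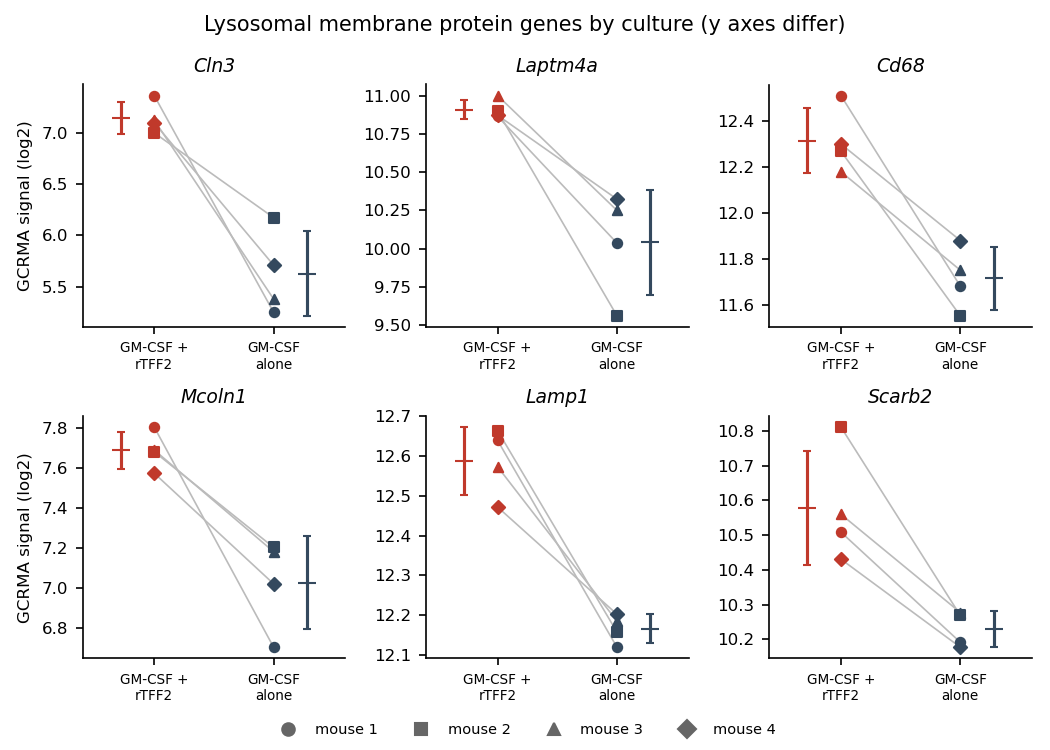
Log2 GCRMA signal of 6 lysosomal membrane protein genes in each culture, GM-CSF plus rTFF2 at left (red) and GM-CSF alone at right (dark), with a symbol and line for each mouse and bars for mean ± SD (n = 4). The genes shown were chosen because they passed the threshold with the same direction in every mouse, so all 4 lines fall towards GM-CSF alone. The groups do not overlap. The y axes differ and do not start at 0.

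Among the soluble hydrolases, *Sgsh*, *Ppt1*, *Gla* and *Naglu* had the largest differences. The cultures with rTFF2 gave *Gla* signals of 9.55, 9.56, 9.33 and 9.27 on the log2 scale in mice 1 to 4, and those with GM-CSF alone gave 8.73, 8.67, 8.42 and 8.51. *Gla* encodes α-galactosidase A, which removes galactose from glycolipids and is deficient in Fabry disease, and its groups were far apart relative to their spread. On average the difference was 0.84 ± 0.07 (SE, limma adjusted p = 0.00041, n = 4 mice). Its other probe set rose by 1.35 (adjusted p = 0.00043). In mice 1 to 4, *Sgsh* reached 5.23, 5.04, 4.96 and 5.08 (log2 signal) with rTFF2 and 3.79, 4.01, 4.11 and 4.10 with GM-CSF alone. *Sgsh*, the sulfamidase of heparan sulfate breakdown, was near the background level with GM-CSF alone, and the groups did not overlap. The mean difference was 1.07 ± 0.10 (SE, n = 4 mice), with a limma adjusted p of 0.00074. Its other probe set, at background, differed by -0.03 (adjusted p = 0.831). The difference was 0.52 when both probe sets were averaged and 0.45 with an offset of 32 added before the log2 step, and it passed in both fits (adjusted p = 0.0045 and 0.012).

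For *Ppt1* the 4 mice gave log2 signals of 9.95, 10.65, 9.96 and 9.84 with rTFF2 and 9.20, 9.47, 8.93 and 9.04 with GM-CSF alone. *Ppt1* encodes palmitoyl-protein thioesterase, which takes fatty acids off proteins, and mouse 2 stood above the other mice in both groups. This gave a difference of 0.94 ± 0.09 (SE, n = 4 mice) with a limma adjusted p of 0.00074. *Naglu* had log2 signals of 7.38, 7.07, 7.23 and 7.35 with rTFF2 in mice 1 to 4, against 6.41, 6.21, 6.73 and 6.86 with GM-CSF alone. The groups did not overlap for *Naglu*, an exoglycosidase that also acts on heparan sulfate. The log2 difference came to 0.71 ± 0.10 (SE, limma adjusted p = 0.0032, n = 4 mice).

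With rTFF2 the log2 signals of *Galns* were 7.03, 7.00, 7.03 and 7.14 in mice 1 to 4, and with GM-CSF alone they were 6.57, 6.52, 6.70 and 6.73. *Galns*, a sulfatase of keratan sulfate and chondroitin sulfate, differed by less, with no overlap. On average the difference was 0.42 ± 0.07 (SE, limma adjusted p = 0.0047, n = 4 mice). The cultures with rTFF2 gave *Hexa* signals of 12.75, 12.76, 12.66 and 12.57 on the log2 scale in mice 1 to 4, and those with GM-CSF alone gave 12.27, 12.24, 12.33 and 12.19. *Hexa*, the α subunit of β-hexosaminidase, which degrades ganglioside in concert with an activator, was bright in both groups, which did not overlap. The mean difference was 0.43 ± 0.07 (SE, n = 4 mice), with a limma adjusted p of 0.0053.

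The other 5 soluble genes that rose each did so in 4 of 4 mice without overlap. *Neu1*, the lysosomal sialidase, differed by 0.49 (adjusted p = 0.0053). *Ctsa*, the protective protein that holds sialidase and β-galactosidase in a complex, differed by 0.40 (adjusted p = 0.017). That call was lost without mouse 1 (adjusted p = 0.0683). *Gaa*, the acid α-glucosidase that degrades glycogen, differed by 0.66 (adjusted p = 0.0055), the culture of mouse 4 with rTFF2 being lowest of its group, and by 0.40 with the offset of 32 (adjusted p = 0.035). *Tpp1*, a tripeptidyl peptidase, differed by 0.46 (adjusted p = 0.0082), and its other probe set by 1.04. The mean of both differed by 0.75 (adjusted p = 0.00073). *Manba*, the β-mannosidase, had the smallest difference that passed, 0.25 (adjusted p = 0.038), and it did not pass when any 1 mouse was left out (adjusted p = 0.0796 to 0.110) or when arrays were centred on their medians (0.0732).

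**Figure D4:**
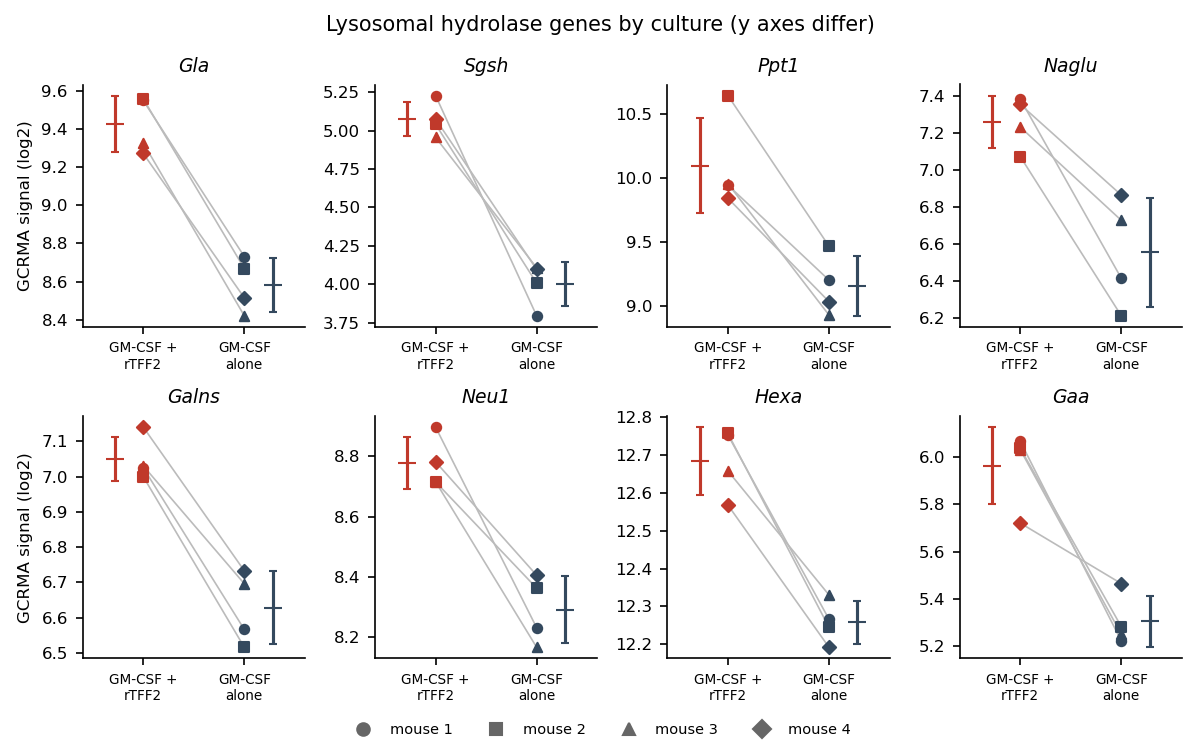
Log2 GCRMA signal of 8 lysosomal hydrolase genes in each culture, GM-CSF plus rTFF2 at left (red) and GM-CSF alone at right (dark), with a symbol and line for each mouse and bars for mean ± SD (n = 4). The genes shown were chosen among those that passed the threshold with the same direction in every mouse, which was higher with rTFF2. *Tpp1*, *Ctsa* and *Manba* also did so, with the largest adjusted p of these hydrolases, and are not shown. The groups do not overlap. *Ppt1* shows mouse 2 and *Gaa* mouse 4 apart from the other cultures with rTFF2, and y axes do not start at 0.

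The hydrolases that did not pass included several glycosidases. *Fuca1*, the fucosidase, differed by 0.02 (95% interval -0.15 to 0.19), *Glb1*, the β-galactosidase, by 0.02 (-0.22 to 0.26), and *Gusb*, the β-glucuronidase, by 0.08 (-0.09 to 0.25). *Glb1* was higher in 1 of 4 mice only. The differences were 0.17 for the α-mannosidase *Man2b1*, 0.15 for the acid ceramidase *Asah1* and 0.28 for the arylsulfatase *Arsa*, with adjusted p of 0.135, 0.204 and 0.141. A dimmer probe set of *Man2b1* rose by 0.74 (adjusted p = 0.018).

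Of the sphingolipid activators and progranulin, 0 of 3 genes passed the threshold. *Psap* encodes prosaposin, the precursor of the saposins, and averaged 13.96 ± 0.03 with rTFF2 and 13.76 ± 0.05 with GM-CSF alone (SD, n = 4 each). Its groups did not overlap, but the difference was 0.20 with an adjusted p of 0.0770, which became 0.0408 without the replicate block. *Grn*, which encodes progranulin, a secreted precursor of lysosomal granulins, differed by 0.11 (adjusted p = 0.297).

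*Gm2a*, the activator that presents ganglioside to β-hexosaminidase, was the only gene of the 38 with a negative mean difference. In mice 1 to 4, *Gm2a* reached 11.61, 11.25, 11.85 and 12.02 (log2 signal) with rTFF2 and 11.88, 11.10, 12.28 and 12.24 with GM-CSF alone. The groups overlapped and 3 of 4 mice were lower with rTFF2. This gave a difference of -0.19 ± 0.10 (SE, n = 4 mice) with a limma adjusted p of 0.223. Its second probe set fell by 0.54 (adjusted p = 0.007). Without mouse 2 the first probe set passed as lower as well, at -0.31 (adjusted p = 0.0495). *Hexa*, which encodes a subunit of its partner enzyme, rose.

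Over all 71 probe sets of the 38 genes, 30 rose and the 1 of *Gm2a* fell, against 13.7% and 12.0% of 22626 probe sets on the array. The 33 probe sets not used to represent a gene, which belong to 22 of the genes, had 11 higher and 1 lower. They read the same RNA and are no further replicates.

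The proton pump genes had a smaller median difference (0.20) than the soluble and the membrane proteins. Of 9 measured genes, 2 rose, a share (22.2%) near the 23.0% of genes above background. In 4 of 4 mice 8 of the 9 were higher. That held for 21.9% of all genes and for 2387 of the 7381 genes above background. For *Atp6v1e1* the 4 mice gave log2 signals of 12.14, 11.96, 12.00 and 11.83 with rTFF2 and 11.30, 11.47, 11.41 and 11.32 with GM-CSF alone. *Atp6v1e1*, a subunit of the peripheral stalk in the cytosolic V1 sector, was higher in every culture with rTFF2. The log2 difference came to 0.61 ± 0.08 (SE, limma adjusted p = 0.0025, n = 4 mice). It was 0.39 when its probe sets were averaged (adjusted p = 0.0076). *Atp6ap1* had log2 signals of 11.38, 11.54, 11.35 and 11.31 with rTFF2 in mice 1 to 4, against 11.01, 10.96, 10.97 and 10.77 with GM-CSF alone. The groups were also separate for *Atp6ap1*, an accessory protein of pump assembly. On average the difference was 0.47 ± 0.07 (SE, limma adjusted p = 0.0043, n = 4 mice).

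With rTFF2 the log2 signals of *Atp6v0d1* were 11.79, 11.88, 11.75 and 11.82 in mice 1 to 4, and with GM-CSF alone they were 11.67, 11.64, 11.78 and 11.72. *Atp6v0d1*, the widely expressed d subunit of the membrane sector V0, overlapped between the groups. The mean difference was 0.11 ± 0.07 (SE, n = 4 mice), with a limma adjusted p of 0.308. *Atp6v0d2*, its counterpart in osteoclasts and macrophages, has no value here. The 5 other V1 genes had similar small differences, 0.21 for *Atp6v1a* and 0.19 for *Atp6v1b2*, which form the catalytic head, 0.19 for *Atp6v1d* of the rotor, 0.20 for *Atp6v1c1* of the stalk and 0.24 for the regulatory *Atp6v1h*, with adjusted p of 0.0856 to 0.105. The groups overlapped for each. *Atp6ap2*, the prorenin receptor and second accessory protein, differed by 0.20 (adjusted p = 0.0660). A second probe set of *Atp6v1a* rose by 0.38 (adjusted p = 0.0077), and 5 of the 9 genes passed with a trended and robust prior or when all probe sets of a gene were averaged.

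Of 13 further V-ATPase genes measured of 14 listed, 3 rose (23.1%, against 14.5% of all genes) and 0 fell (median -0.08). Only 7 of the 13 were above background in a group, and the 3 that rose were among these 7. Of all genes above background 23.0% rose. *Tcirg1*, the a3 subunit of the membrane sector typical of lysosomes and of osteoclasts, had signals of 9.46, 9.47, 9.25 and 9.31 with rTFF2 and 8.45, 8.96, 8.57 and 8.63 with GM-CSF alone in mice 1 to 4. It differed by 0.72 ± 0.09 (SE, adjusted p = 0.0021). *Atp6v0b*, of the proteolipid ring, differed by 0.61 ± 0.11 (adjusted p = 0.0071) and *Atp6v0a1* by 0.90 ± 0.17 (adjusted p = 0.0085). The groups did not overlap for any of them. The difference of *Atp6v0a1* was 0.34 when its probe sets were averaged (adjusted p = 0.036). *Atp6v0a2* and *Atp6v0e*, also of the membrane sector, differed by -0.16 and 0.13 and did not pass. *Atp6v1f* and *Atp6v1g1* of the V1 sector differed by -0.01 and -0.08 and did not pass. These 4 are named after their values were seen.

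**Figure D5:**
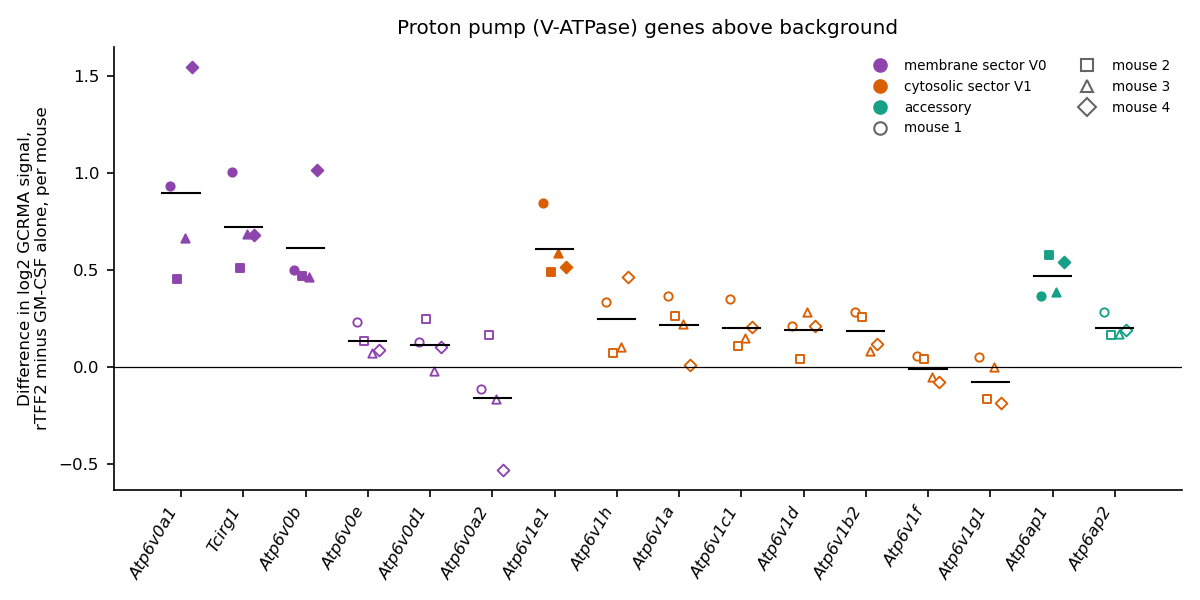
Difference in log2 GCRMA signal between GM-CSF plus rTFF2 and GM-CSF alone in each of 4 mice for 16 V-ATPase genes above background, by sector, with a bar at the mean and filled symbols where the gene passed. *Atp6v0a1*, *Tcirg1* and *Atp6v0b* of the membrane sector, the V1 gene *Atp6v1e1* and the accessory *Atp6ap1* passed and are positive in all mice. Most others lie nearer to 0, and several of these are also positive in all mice.

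*Tfeb* was dim in all cultures. The cultures with rTFF2 gave *Tfeb* signals of 4.20, 4.01, 4.17 and 4.30 on the log2 scale in mice 1 to 4, and those with GM-CSF alone gave 3.87, 4.07, 3.77 and 3.80. The rTFF2 culture of mouse 2 lay below the control of that mouse, so the groups overlapped. This gave a difference of 0.29 ± 0.10 (SE, n = 4 mice) with a limma adjusted p of 0.0755. Without the replicate block the adjusted p was 0.0446, and it was 0.017 without mouse 2. Among 17 measured genes of the TFEB family and of nutrient sensing on the lysosome, 6 rose and 0 fell (median 0.15). The share that rose was 35.3%, against 14.5% of all genes. *Tfec*, a relative of TFEB in macrophages, rose by 0.73 ± 0.09 (SE, adjusted p = 0.0018). Its signals were 10.82, 11.08, 10.67 and 10.58 with rTFF2 and 9.97, 10.64, 9.78 and 9.83 with GM-CSF alone in mice 1 to 4, so the culture of mouse 2 with GM-CSF alone overlapped the other group. *Lamtor4* (0.55), *Rragc* (0.42) and *Lamtor3* (0.45), of the complexes that tether mTORC1 to the lysosome, were the next by adjusted p. *Mitf*, another relative, and *Flcn*, a regulator of the Rag GTPases, also rose (0.64 and 0.65) and are named after their values were seen.

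The wider set of lysosomal enzymes gave a similar picture with more exceptions. Of 24 further hydrolases and related enzymes measured of 32 listed, 13 rose (54.2%) and 4 fell (median 0.33). Of all genes 14.5% rose and 13.3% fell. *Galc*, which degrades galactosylceramide, was at 8.04, 7.99, 7.76 and 7.61 with rTFF2 and 6.27, 6.61, 6.22 and 6.03 with GM-CSF alone in mice 1 to 4. The groups were more than 1 log2 unit apart, and the difference was 1.57 ± 0.08 (SE, adjusted p = 0.00012). *Arsg*, a sulfatase of heparan sulfate, differed by 1.61, *Hgsnat*, the acetyltransferase of the same pathway, by 1.13, and *Acp2*, the lysosomal acid phosphatase, by 0.87. The difference of *Galc* was 0.54 when its probe sets were averaged (adjusted p = 0.0022), and that of *Arsg*, dim with GM-CSF alone, was 0.70 with an offset of 32 added before the log2 step (adjusted p = 0.0083). The 4 lower genes are named after their values were seen. Of these, *Scpep1* and *Prcp* encode serine carboxypeptidases (-0.46 and -0.59). The others were *Naaa*, an acid amidase (-0.60), and *Ids*, a sulfatase of heparan and dermatan sulfate (-0.37). The groups overlapped for *Naaa* and *Ids*, and both calls were lost without the replicate block (limma adjusted p = 0.139 and 0.0913).

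Among 25 further membrane proteins and transporters measured of 34 listed, 10 rose (40.0%, against 14.5% of all genes) and 1 fell (median 0.23). *Slc11a1*, the metal transporter NRAMP1 of phagosomes, rose by 1.30, *Lmbrd1*, needed for cobalamin export, by 1.05, *Cd37*, a tetraspanin, by 1.01, and *Npc1*, the cholesterol exporter, by 0.74. The gene that fell, named after its values were seen, was *Slc46a3*, a lysosomal transporter, at 3.80, 4.07, 3.31 and 3.67 with rTFF2 and 5.44, 5.10, 5.86 and 5.32 with GM-CSF alone in mice 1 to 4. Its difference was -1.72 ± 0.21 (SE, adjusted p = 0.0018), opposite in sign to that of *Cln3*. With rTFF2 the signals of *Slc46a3* lay near the background level of 3.50, that of mouse 3 below it, so the size of the fall depends on the background correction.

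Genes that bring enzymes to the lysosome or feed it by autophagy included further genes that rose. Of 21 targeting genes measured of 25 listed, 8 rose and 0 fell (median 0.16), among them the mannose 6-phosphate receptor *Igf2r* (0.57), the sorting receptor *Sort1* (0.50), the retromer subunit *Vps26a* (0.55) and the tethering subunit *Vps18* (0.50). Of 21 autophagy genes measured of 23 listed, 8 rose and 0 fell (median 0.19), including *Wipi1* (0.83), *Atg12* (0.78), *Ulk1* (0.56) and *Map1lc3b* (0.39), which act in autophagosome formation. The share that rose was 38.1% for the targeting genes and 38.1% for the autophagy genes. Over the 6 lists together 48 of 121 measured genes rose (39.7%) and 5 fell. Of all genes 14.5% rose and 13.3% fell, and of genes above background 23.0% rose. Averaging the probe sets of a gene lowered the difference to 0.29 for *Sort1*, 0.40 for *Wipi1* and 0.41 for *Atg12*, and the offset of 32 lowered it to 0.28 for *Vps18*, all still past the threshold. The call of *Igf2r* was lost without the replicate block, that of *Ulk1* when its probe sets were averaged, and that of *Atp6v0a1* with an offset of 32 added before the log2 step (adjusted p = 0.0591, 0.0685 and 0.0551, with differences of 0.57, 0.25 and 0.58).

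Without the replicate block, 21 of the 38 lysosomal genes rose, with *Psap* and *Tfeb* added, and 12.4% of all genes did.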

How the data were processed

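RNA of 8 cultures was measured on Affymetrix mouse arrays, 1 per culture. The authors deposited log2 signals made with GCRMA, which corrects background by probe base content, normalizes arrays to a common distribution and summarizes probe sets. In the deposited values the array medians still differed slightly, at 4.14 to 4.20 with rTFF2 and 4.09 to 4.12 with GM-CSF alone. Versions in the submitters' processing notes are 2.30.0 for GCRMA and 1.36.0 for affy. Scanner files were not used here. By the labels and methods, both groups hold cells of the same 4 animals, so the mouse was a fixed block in limma 3.58.1 (R 4.3.3), with Benjamini-Hochberg adjustment over 22626 probe sets (64 controls left out) and a threshold of 0.05. Deviations from the group means correlated at 0.04 to 0.54 between cultures of a mouse and at -0.55 to 0.35 between mice. A symbol was alone on 20380 probe sets, shared on 691 and absent on 1555. All 38 measured symbols matched RefSeq by gene identifier. The background level was the 95th percentile over 43 genes not typical of blood cells. The genes and lists were chosen with earlier results of these data known. Values in every culture are given for called genes with 1 direction in 4 of 4 mice, up to 6 per class by adjusted p, and for *Tfeb*, *Atp6v0d1* and *Gm2a* (the last chosen after its values were seen). From each pathway list, up to 4 called genes are named by adjusted p, and others where the text says that they were chosen after their values were seen. The fit was tested on simulated data. Alternatives were no block, a filter on dim probe sets, quantile normalization, median centring, an offset of 32, another prior, array weights, leaving out each mouse, the mean of a gene's probe sets, a threshold of 0.01 and an *Actb* covariate.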

Additional observations from a re-analysis of the deposited data

Results flagged for a closer look

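In 3 of 76 groups of 4 cultures, 1 culture lay far from the other 3 relative to the range of its group, and chance alone flags about 1 in 20 groups. For *Gaa* with rTFF2, the culture of mouse 4 was lowest (5.72, others 6.03 to 6.07), and its gap was 0.898 of the range. For *Manba* with rTFF2, mouse 2 was highest (9.99, others 9.76 to 9.78), with a gap of 0.901. For *Ppt1* with rTFF2, mouse 2 was highest (10.65, others 9.84 to 9.96), with a gap of 0.858. All 3 cultures belonged to the group with rTFF2.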

How the results depend on the processing

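With the replicate block 19 lysosomal genes rose, without the replicate block 21 rose, and over the other alternatives except the *Actb* covariate 16 to 23 did. Without the block 3 genes of the other pathway lists fell, with a threshold of 0.01 also 3, and with median centring 10, against 5. The count of proton pump genes called was 5 with a trended and robust prior and 5 when probe sets were averaged per gene, against 2, and averaging added 1 lower gene, *Gm2a*. A threshold of 0.01 gave 1640 higher and 1266 lower probe sets and 1005 higher and 782 lower genes. Leaving out 1 mouse gave 16 to 19 higher and 0 to 1 lower lysosomal genes, 35 to 42 higher and 3 to 6 lower genes of the other lists, 2016 to 2708 higher and 1593 to 2298 lower probe sets, and 1211 to 1572 higher and 995 to 1418 lower genes. With the *Actb* covariate, 829 probe sets and 523 genes were higher, 759 and 490 lower, and 3 lysosomal genes higher, namely 1 membrane protein, 1 soluble protein, 0 of the proton pump and *Tfeb*, with 9 higher and 3 lower genes in the other lists. The log2 difference turned negative in that fit for *Laptm5* (-0.0401), *Glb1* (-0.2465), *Fuca1* (-0.0378), *Arsa* (-0.2256), *Asah1* (-0.0537), *Grn* (-0.0122) and *Atp6v0d1* (-0.0327), none of which passed in either fit. Signs also turned for *Glb1* with another quantile normalization (-0.0375), median centring (-0.0292) and array weights (-0.0044), for *Laptm5* with median centring (-0.0379) and for *Fuca1* with median centring (-0.0267). With 1 mouse left out, the difference ran from -0.0884 to 0.1062 for *Glb1*, from -0.0052 to 0.0432 for *Laptm5*, from -0.0263 to 0.0607 for *Fuca1* and from -0.0068 to 0.1343 for *Lamp2*, and none of these passed. The causes were not tested. The 4 mice limit the precision of every value, and the folds of dim genes such as *Sgsh* and *Tfeb* depend on the background correction.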
